A study of Mus musculus with 8 samples.

Results

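The accessible regions around 8 genes for gut and liver transcription factors (Hnf4a, Hnf4g, Foxa1, Foxa2, Foxa3, Cdx2, Gata4 and Gata6) were examined in medullary thymic epithelial cells (mTECs), the stromal cells of the thymic medulla that display self-antigens of peripheral tissues to developing T cells. A region belonged to a gene when it overlapped the gene body or the 50 kb on either side of it. By this rule, 44 of 57124 regions were found, all of them in the window of 1 gene only. The farthest of them lay 47560 bases from its gene (252 bases wide, Hnf4a), and the nearest region left out lay 52405 bases away (582 bases wide, Foxa3). Open chromatin had been mapped with ATAC-seq, a method that tags accessible DNA with sequencing adapters by means of a transposase, and the regions are the merged peaks of the whole series. The cells came from the thymus of wild-type (wt) mice, in the study young animals of a strain named BL6N6, and were depleted of CD45+ blood cells, gated as Epcam+ and CDR1- and sorted by flow cytometry into 4 groups of 2 biological replicates each: Tspan8neg MHCIIlow, Tspan8neg MHCIIhigh, Tspan8pos MHCIIlow and Tspan8pos MHCIIhigh. Tspan8 is a membrane protein that marks mTECs expressing a set of tissue-restricted antigens, and MHC class II rises as mTECs mature and falls again at late stages, so that MHCIIlow cells can be immature or late. No count column could be matched to any of these groups, so the values given here are positions, widths and sequence of regions and hold for no group in particular. A missing region means only that no peak was in the merged set. A region that is open in few of the cells and a region that is weakly open in all of them cannot be told apart in such a set.

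The 8 genes encode factors that establish the endodermal organs. Foxa1, Foxa2 and Foxa3 are forkhead pioneer factors, which can bind their sites in closed chromatin, and of these Foxa1 and Foxa2 are together needed for liver specification. Gata4 and Gata6 are zinc finger factors of early endoderm, heart and intestine. Hnf4a and Hnf4g are nuclear receptors that drive the hepatocyte and enterocyte programs, and Cdx2 is the homeobox factor that specifies the intestine. Small subsets of mTECs are known to use such lineage factors and to express genes of peripheral cell types, among them cells that resemble enterocytes and hepatocytes and that express Hnf4 factors.

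Sequences of 5 regions are shown because the contrasts described here rest on them. The first 3 are the regions closest to a start of Foxa3 (chr7:19023540-19023703), of Cdx2 (chr5:147306700-147306832) and of Hnf4a (chr2:163535041-163535209), with each CG dinucleotide in capitals. The other 2, the upstream part of the region at the Gata4 start (chr14:63245272-63245488) and a region upstream of Foxa2 (chr2:148080333-148080593), hold the HNF4 motif CAAAGTCCA, in capitals. It reads as TGGACTTTG in the Gata4 sequence, where it lies on the opposite strand. All are from mm10 and run 5' to 3' on the strand of the gene, which is the plus strand for Hnf4a and the minus strand for the others. Annotated UTR sequence was left out.
Foxa3 start region: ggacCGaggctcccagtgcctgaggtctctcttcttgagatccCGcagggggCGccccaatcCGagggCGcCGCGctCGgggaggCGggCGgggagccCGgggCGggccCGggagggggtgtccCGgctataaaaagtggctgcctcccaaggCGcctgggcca
Cdx2 first exon: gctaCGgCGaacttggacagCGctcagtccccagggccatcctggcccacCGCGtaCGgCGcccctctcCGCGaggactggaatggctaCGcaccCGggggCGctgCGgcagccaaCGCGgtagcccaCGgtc
Hnf4a intron: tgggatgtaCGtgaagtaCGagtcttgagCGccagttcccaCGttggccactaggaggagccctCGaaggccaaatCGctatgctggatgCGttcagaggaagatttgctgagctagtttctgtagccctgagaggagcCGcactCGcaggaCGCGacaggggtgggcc
Gata4, upstream of the start: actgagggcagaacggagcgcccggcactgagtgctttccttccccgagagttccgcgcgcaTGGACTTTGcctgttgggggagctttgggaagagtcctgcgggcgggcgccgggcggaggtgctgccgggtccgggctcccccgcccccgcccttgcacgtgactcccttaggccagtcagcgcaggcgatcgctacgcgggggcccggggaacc
Foxa2, distal: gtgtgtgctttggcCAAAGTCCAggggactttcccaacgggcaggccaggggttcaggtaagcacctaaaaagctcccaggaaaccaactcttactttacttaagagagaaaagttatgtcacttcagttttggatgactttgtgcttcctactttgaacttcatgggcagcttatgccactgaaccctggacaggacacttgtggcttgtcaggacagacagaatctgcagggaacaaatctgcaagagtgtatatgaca
The Foxa3 region holds 15 CG dinucleotides in 164 bases, the Cdx2 region 16 in 133 bases and the Hnf4a region 11 in 169 bases. Relative to the number given by their C and G content, the ratios were 0.68 for Foxa3, 0.93 for Cdx2 and 0.78 for Hnf4a. By that ratio the Hnf4a region was thus above the Foxa3 region.

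To address whether the starts of the factor genes lay in open chromatin, the distance from each start of the basic GENCODE M21 set to the nearest edge of a region was measured. A region covered a start of Hnf4g, Foxa2, Gata4 and Gata6, so that 4 of the 8 genes were covered, compared with 56.4% of the 21938 protein-coding genes. The nearest edge was 2 bases from the start of Foxa3, 21 bases from that of Foxa1 and 438 bases from that of Cdx2. In Hnf4a alone of the 8 genes it was over 1000 bases away, at 11978 bases. A region within 1000 bases of a start was thus present in 7 of 8 genes, compared with 63.1% of protein-coding genes. By the stricter rule that a region is centred between 1000 bases before and 100 bases past a start, which is the definition of a promoter used here, 5 of 8 genes had a promoter region, compared with 48.6% of protein-coding genes. The 3 genes without one by that rule were Hnf4a, Hnf4g and Cdx2. The list is short, its genes were chosen with earlier results known, and no test was made of these counts.

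**Figure D1:**
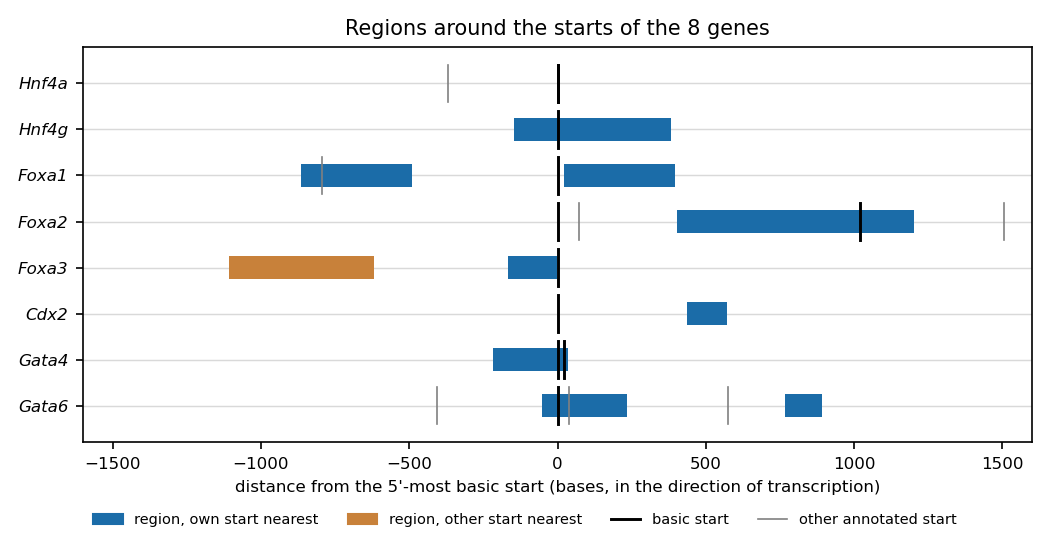
Regions around the starts of the 8 genes. The horizontal axis is the distance in bases from the most upstream basic start, in the direction of transcription. Bars are regions drawn to scale, blue where the nearest protein-coding start belongs to the gene and orange where it belongs to another gene. Black lines are basic starts and grey lines are other annotated starts. The Hnf4a row holds no region, and the bar of the 801-base region of Foxa2 covers the second of its 2 basic starts.

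The Foxa genes differed in how the regions sat at their starts. Foxa2, which is required for the node and the endoderm, had the widest region of all 44, with 801 bases on chromosome 2 from 148045767 to 148046567. It covered 1 of the 2 basic starts and overlapped UTR of Foxa2, and its edge was 402 bases from the other, more upstream start. Foxa1 had a pair of regions of nearly equal width. The downstream one (chromosome 12, 57545726 to 57546100, 375 bases) lay in the first exon and its UTR, had a GC content of 76.3% and began 21 bases downstream of the start. The upstream one (57546611 to 57546986, 376 bases) had a GC content of 56.1%, lay 490 bases from the same start and covered the start of a noncoding Foxa1 transcript that the basic set leaves out. Foxa3, a factor of liver and gut that is known to act in glucose metabolism, had the narrowest of these start regions, with 164 bases on chromosome 7 from 19023540 to 19023703. The 10th percentile of width over the 12497 promoter regions of the set was 136 bases, the lower quartile 277 bases and the median 482 bases, so the Foxa3 region was below the lower quartile and the Foxa2 region above the upper quartile of 703 bases.

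The Foxa3 start region overlapped no exon of the gene and stopped 2 bases short of its start. The letters TATAAA occurred 1 time in it, beginning 37 bases upstream of the start, as can be read near the end of the printed sequence. This string was looked for after the sequence had been seen, and 5.84% of all promoter regions held it on either strand. The start of Sympk, which encodes a scaffold protein of mRNA 3' end formation, lay 839 bases from that of Foxa3 on the opposite strand. A second region (19024157 to 19024644, 488 bases, 74.4% GC) covered the Sympk start and had its edge 619 bases from the Foxa3 start. The narrow region was nearest to the start of Foxa3 and the wider one to that of Sympk. By the promoter definition, each of them counted for both genes.

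The GATA genes both had a region over a start. At Gata4 the region (chromosome 14, 63245236 to 63245488, 253 bases, 72.3% GC) covered 2 of the 3 basic starts, which lie close together. The nearest region to the third basic start, inside the gene, was 14220 bases away, and the pair of upstream starts outside the basic set were 14989 and 15557 bases from a region. At Gata6 the region (chromosome 18, 11052417 to 11052704, 288 bases, 63.2% GC) covered the basic start, and a smaller one of 125 bases (11053236 to 11053360) followed in the gene, 766 bases from that start. These 2 regions were the whole set in the 134 kb window of Gata6. The regions that covered the Gata4 and Gata6 starts were narrower than the median promoter region of the series.

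The HNF4 genes differed in the same measure. At Hnf4g a region of 531 bases (chromosome 3, 3507883 to 3508413, 55.0% GC) covered the upstream start and overlapped UTR, while the second basic start, in the gene, was 69726 bases from any region. Its centre was 118 bases downstream of the start, which kept it just outside the promoter definition. Hnf4a has a pair of alternative promoters, and 0 of its 5 annotated starts were covered. The basic start at 163547187 was 11978 bases from a region. The most upstream annotated start, at 163506808, was 25260 bases from one. The closest regions to Hnf4a starts were narrow and intronic, namely the printed one of 169 bases (chromosome 2, 163535041 to 163535209) and one of 76 bases (163532068 to 163532143), both between these starts and both also inside the antisense gene Hnf4aos. Of all protein-coding genes, 25.4% had their nearest region farther from a start than Hnf4a.

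At Cdx2, no region covered the start or the sequence upstream of it within 1000 bases. The nearest region (chromosome 5, 147306700 to 147306832, 133 bases, 72.2% GC) lay in coding sequence of the first exon, with its centre 504 bases downstream of the start. The widest region of the window (147299349 to 147299948, 600 bases, 59.7% GC) lay beyond the 3' end of the gene, 7322 bases from the start at its nearer edge. A pair of narrow regions of 163 and 108 bases followed it, 13828 and 14486 bases from the start. All 3 were nearer to Cdx2 than to the start of Pdx1, the pancreatic homeobox factor that shares this window and whose nearest region was 22718 bases away.

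Across the whole windows, the 44 regions covered 13161 bases. Their median width was 252 bases (range 69 to 801), and that of all regions was 212 bases. Regions under 200 bases made up 40.9% of them and 47.4% of the set. By their centres, 10 lay in promoters (22.7%, compared with 21.9% of all regions), 9 in exons outside promoters (20.5% and 8.36%), 14 in introns (31.8% and 40.2%) and the other 11 between genes, where 29.6% of all regions lay. Widths and classes were not tested, since regions of a window are not independent of each other. The exonic regions included those at the starts of Hnf4g, Foxa1 and Cdx2, whose centres lay too far downstream to count as promoters.

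The number of regions in a window ranged from 2 to 9, and the median over protein-coding genes was 5 (quartiles 2 and 8). Hnf4a, Foxa3 and Gata4 had 9 each, which is more than 75.3% of protein-coding genes had. Foxa1 had 6, Cdx2 had 5, and Hnf4g, Foxa2 and Gata6 had 2 each. Windows differ in length with the gene, and per 100 kb the extremes were Foxa3 with 8.16 regions and Hnf4g with 0.80, the latter in a window of 250 kb. The median over protein-coding genes was 3.76 per 100 kb (quartiles 1.64 and 6.36).

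**Figure D2:**
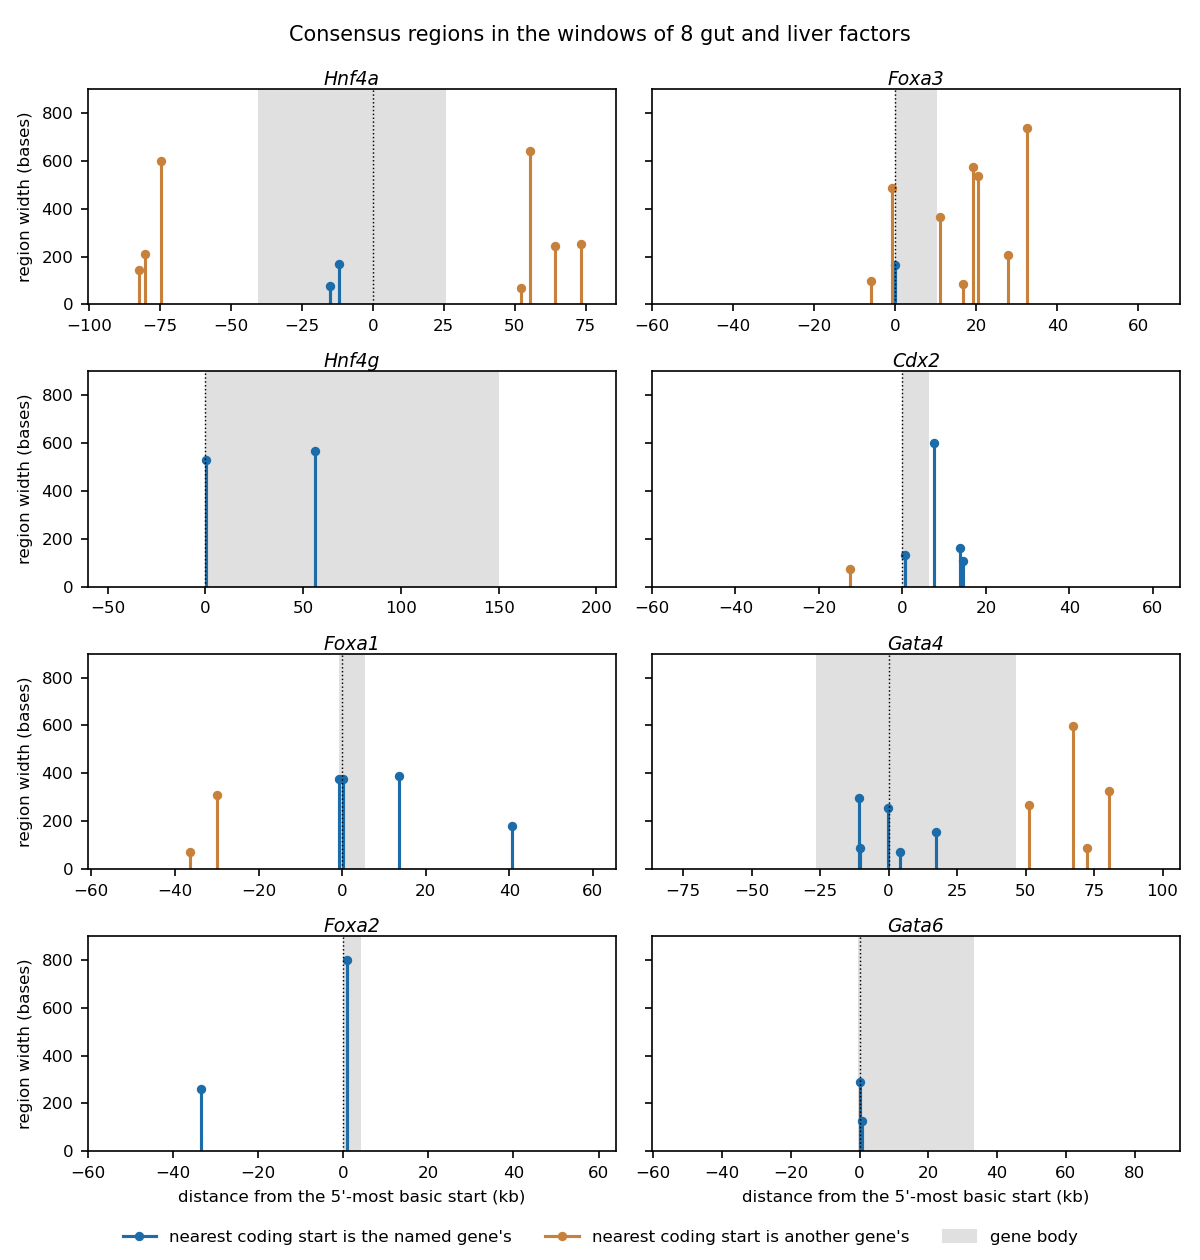
Consensus regions in the window of each gene. The horizontal axis is the distance in kb from the most upstream basic start, in the direction of transcription, and the vertical axis is the width of a region in bases. Each stem is 1 region, blue where the nearest protein-coding start is that of the named gene and orange where it is that of a neighbour, and grey shading is the gene body. Of the 9 stems of Hnf4a only 2 are blue, whereas all stems of Hnf4g, Foxa2 and Gata6 are blue.

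Many of the regions lay closer to a neighbouring gene. The nearest protein-coding start was that of the factor gene itself for 22 of the 44 regions and that of another gene for the other 22. In the Hnf4a window, 7 of 9 regions lay nearest to the coding start of a neighbour. The widest was a region of 641 bases (163602189 to 163602829) that covered a start of Ttpal, which encodes a protein of the tocopherol transfer family. The next, of 599 bases (163472242 to 163472840), lay at the promoter of Fitm2, which acts in lipid droplet formation. In the Foxa3 window, 8 of 9 lay nearer to Mypop, Irf2bp1 or Sympk, with the widest, of 739 bases, at the promoter of Mypop. In the Gata4 window, 4 of 9 lay nearer to Fdft1, the squalene synthase gene of sterol synthesis, or to Neil2, a DNA glycosylase gene. The widest of these was a region of 598 bases at the Fdft1 promoter. The 22 regions nearest to a factor gene had a median width of 217 bases and the other 22 one of 260 bases.

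Away from the starts, 13 regions had a factor gene as their nearest coding gene and lay over 1000 bases from its starts, between 4207 and 55829 bases away. Their median width was 169 bases (range 70 to 600), compared with 176 bases for all regions outside promoters, and 8 of the 13 were under 200 bases. Inside a factor gene lay 7 of them. Gata4 had 4, among them a CpG-rich intronic region of 296 bases (63255840 to 63256135, 77.7% GC) with a narrow one of 87 bases beside it. Hnf4g had 1 of 566 bases in an intron (3563859 to 3564424), 55829 bases from the start, and with 34.8% it had the lowest GC content of the 44. Foxa1 had 2 on the far side of its 3' end, of 390 bases (57532280 to 57532669, 13452 bases from the start) and 181 bases (57505453 to 57505633). Foxa2 had 1 of 261 bases, 33364 bases upstream of a start. Gata6 and Foxa3 had 0.

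The 10 regions within 1000 bases of a factor gene's own start had a median width of 332 bases (range 125 to 801). Their median GC content was 69.2% (55.0% to 76.3%). The medians over all promoter regions, which are chosen by their centres instead, were 482 bases and 64.6%. By that definition the start region of Hnf4g, that of Cdx2, the downstream one of Foxa1 and the 125-base one of Gata6 were not promoters. The 10 also include the 488-base region over the Sympk start (74.4% GC), whose nearest coding start is that of Sympk. The CpG ratio of the 10 regions is the observed number of CG dinucleotides over that given by the C and G content. It ranged from 0.47 to 1.06. The median of this ratio was 0.77 in all promoter regions and 0.25 in the regions outside promoters. Of the 13 more distant regions, GC content ranged from 34.8% to 77.7% with a median of 55.2%, and the CpG ratio from 0.06 to 0.99 with a median of 0.32. The regions at the starts were therefore mostly GC-rich and the distant ones mixed. The printed Hnf4a intron sequence had a CpG ratio of 0.78, and the distal Foxa2 sequence one of 0.07. No base of 23 of the 44 regions was soft-masked as a repeat, and 51.3% of all regions had no such base.

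**Figure D3:**
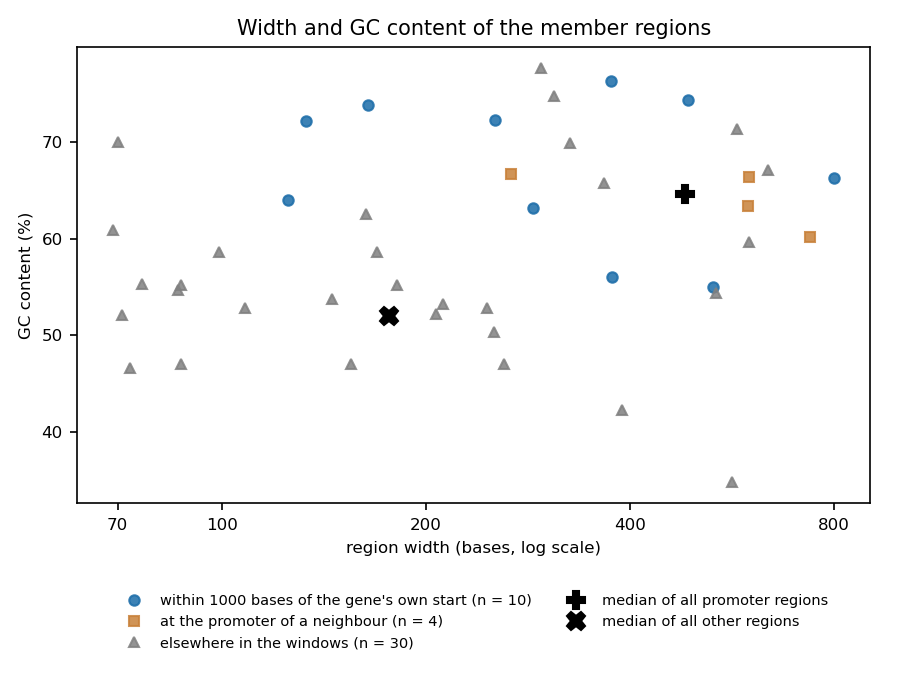
Width and GC content of the 44 regions. The horizontal axis is the width in bases on a log scale and the vertical axis is the GC content in percent. Blue circles are the 10 regions within 1000 bases of a factor gene's own start, orange squares 4 at promoters of neighbours and grey triangles the other 30. The 488-base region over the Sympk start is among the blue circles. The black plus is the median of all promoter regions (482 bases, 64.6%) and the black cross the median of all other regions (176 bases, 52.0%), and the blue circles lie from 55.0% upwards.

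The binding motifs of the factors' own families were then sought in the regions, on both strands. The HNF4 motif CAAAGTCCA was in 2 of 44 regions (4.55%), compared with 0.481% of all regions. These were the region over the Gata4 start, where it lay in the part upstream of the start on the opposite strand, and the distal Foxa2 region, both printed above. Within the central 200 bases of each region the motif was left in 1 of 44 (2.27%), since the Foxa2 match begins at base 15 of 261, and outside promoters that match alone gave 2.94%. With the shorter spelling CAAAGTC, 4 of 44 regions held it (9.09%, compared with 3.61% of all regions), and the Foxa2 region held it 2 times. The other 2 were nearest to Mypop in the Foxa3 window. The FOXA motif TGTTTAC was in 1 of 44 regions, near Ttpal, compared with 3.69% of all regions, and TGTTTNC was in 5 (11.4% and 18.0%). The GATA motif AGATAAG was in 0 of 44 regions (2.14% of all regions), and AGATAA in 2 (4.55% and 7.08%), nearest to Hnf4g and Foxa1. The CDX motif CCATAAA was in 0 of 44 regions (2.36% of all regions), and CATAAA in 2 (4.55% and 8.32%), both nearest to Foxa1. A match describes letters and not a bound site, and with 44 regions a share near these backgrounds corresponds to few regions.

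Other genes of the same programs were compared by the same rules. Of 32 further gut and liver factors, 12 had a promoter region (37.5%, compared with 48.6% of protein-coding genes) and 15 a region within 1000 bases of a start (46.9%, compared with 63.1%). The widest promoter regions were at Klf5 (1042 bases), a Krüppel-like factor of epithelial growth, Ppara (998 bases), the receptor of fatty acid oxidation, and Cebpb (841 bases), a factor of the acute phase response. Among those without a promoter region, Ascl2, a factor of intestinal stem cells, had a region 420 bases from a start, Atoh1, a factor of the secretory gut lineage, one at 1022 bases, and Cdx1, the paralog of Cdx2, one at 2252 bases. In the GATA family with its cofactors, 4 of 7 genes had a promoter region (57.1%, compared with 48.6% of protein-coding genes). The widest were at the cofactor genes Zfpm1 (930 bases) and Zfpm2 (743 bases) and at Trps1 (487 bases). Gata1 and Gata5 were 8685 and 12575 bases from a region, while Gata2 had one at 38 bases.

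Genes that mark differentiated liver and gut, many of them known targets of these factors, rarely had a region at a start. Of 15 liver genes, 1 had a promoter region (6.67%, compared with 48.6% of protein-coding genes). This was Apoa1, the main apolipoprotein of HDL, with a region of 85 bases on chromosome 9. The other 14 had none within 1000 bases of a start, and the starts of Alb (serum albumin), Ambp (alpha-1-microglobulin) and Apoa2 were 39975, 4914 and 2257 bases from a region. Of 15 gut genes, 0 had a region within 1000 bases of a start, compared with 63.1% of protein-coding genes. The distances ranged from 1528 to 70195 bases. They included 2750 bases for Alpi, the intestinal alkaline phosphatase, 5020 bases for Cdh17, an intestinal cadherin, and 2252 bases for Cdx1. Cdx1 is also among the gut and liver factors above. The median distance was 21829 bases in the liver genes and 8655 bases in the gut genes, compared with 1 base in the 8 factor genes and 0 over all protein-coding genes. Since the lists are short and were not drawn at random, the difference was not tested.

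**Figure D4:**
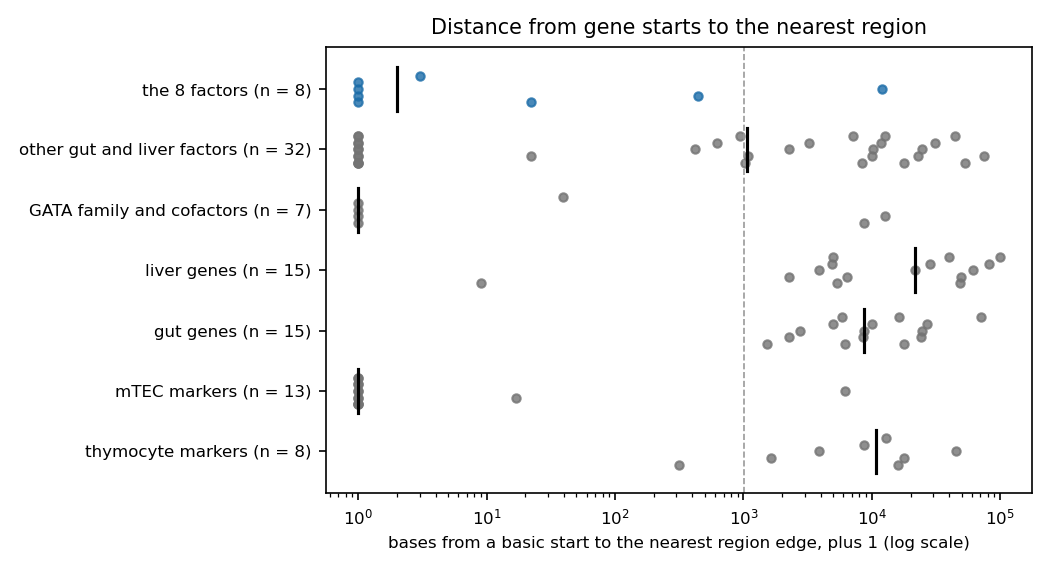
Distance from gene starts to the nearest region. The horizontal axis is the distance in bases from a basic start to the nearest region edge, plus 1, on a log scale. Each point is a gene, spread vertically for legibility, black lines are medians and the dashed line marks 1000 bases. Points at 0 bases lie over each other. Of the 8 factors 7 lie left of the dashed line, as does 1 of 15 liver genes and 0 of 15 gut genes.

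The sorted cells were described with marker genes. Of the mTEC markers, Epcam and the MHC class II gene H2-Ab1 encode proteins on which the cells were sorted. A promoter region was found in 11 of 13 mTEC markers (all but Ccl21a and Fezf2), compared with 48.6% of protein-coding genes. It was found in 3 of 4 markers of cortical thymic epithelium, so these counts do not set medullary apart from cortical epithelium. It was also found in 1 of 8 markers of thymocytes (Bcl11b), 0 of 5 of other blood cells, 0 of 4 of fibroblasts and 1 of 4 of endothelium (Kdr). By the wider rule of a region within 1000 bases of a start, which 63.1% of protein-coding genes met, the counts were 12 of 13 for mTECs (Fezf2 at 16 bases, Ccl21a at 6188 bases), 1 of 5 for other blood cells (Flt3) and 3 of 4 for fibroblasts, and the other counts were the same. The sort, which took CD45-, Epcam+ and CDR1- cells, is set to remove blood, fibroblast, endothelial and cortical epithelial cells. The part that such other cells have in the regions at the factor genes was not tested.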

How the data were processed

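ATAC-seq libraries of mTECs sorted by Tspan8 and MHC class II (8 samples, 4 groups, 2 replicates each) were described by 1 deposited table. The authors aligned reads to mm10 with Bowtie2, removed mitochondrial, multimapping and low-quality reads and duplicates, called broad MACS2 peaks, merged them with bedtools and counted reads (featureCounts 2.0.3). Whether each library or a pool went into a peak call is not given in the sources used here. The deposited values used are the other columns, region start, end and width in bases. The 8 columns of read counts match no sample label and were not used in any step, and no comparison between groups, depth per sample or normalized count is given. An absent region may be a weak one.

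Genes and starts came from GENCODE M21 (GRCm38, 0 chromosomes with a region past the end), sequence from RefSeq's copy of that assembly. The 8 genes are all named. Marker lists are given as counts. Of each of the 4 other lists (gut and liver factors, GATA family, liver genes, gut genes) the 3 genes with the widest promoter region and up to 3 without one, in alphabetical order, are named. Genes, lists and motifs were chosen with earlier results of these data known. RefSeq symbols resolved 1 older name. Lookup of regions, starts and motifs was tested on simulated data. Scripts ran under Python 3.11.15 with pandas 2.3.3 and numpy 2.4.6, intervals came from scipy 1.17.1, and plots from matplotlib 3.10.9.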

Additional observations from a re-analysis of the deposited data

How the results depend on the processing

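No paired analysis was possible because no column of counts could be tied to a sample, and the planned comparisons of counts between groups and their alternatives were not run. Of 28 alternatives over 7 results, 23 stayed within 1.5 times for counts, or within an interval that treats regions as independent for the median width (medians of 194 to 272 bases) and the motif shares. The 5 others all concern how many regions the windows hold. Instead of 44 there were 29 with the gene body plus 20 kb, 72 with 100 kb, 15 in the gene bodies alone, 26 of at least 200 bases and 22 whose nearest coding start was that of the factor gene, as follows from a smaller or larger window or fewer regions. The number of genes with a promoter region was 5 under 4 alternatives, 7 under 2 and 4 when a region had to cover a start, a rule chosen after seeing the data. With regions of at least 200 bases, Foxa3 lost its 164-base start region and counted only through the 488-base region over the Sympk start. The share with the HNF4 motif was 9.09% with the shorter spelling, 2.27% in the central 200 bases and 2.94% outside promoters. With 44 regions the intervals of the motif shares are wide, so their stability says little.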

Other observations

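Antisense and noncoding neighbours were listed in the same windows, chosen after the regions had been seen. The start of Hnf4aos, antisense to Hnf4a and 5467 bases from a basic start of it, was 6511 bases from a region. The start of 1010001N08Rik, on the strand opposite to Gata6 and 4833 bases from its start, was 4780 bases from one. At Cdx2, the start of the antisense gene Plut beside Pdx1 was 21156 bases from a region. Of 13 protein-coding neighbours with a start in a window, 5 had a promoter region, compared with 48.6% of all protein-coding genes. Among those without one, a region covered a start of Ttpal and of Irf2bp1 and lay 194 bases from that of Ttc6. The rest were 2536 bases or more from a region.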
